A study of Mus musculus with 50 samples.

Results

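RNA sequencing of frontal cortex from mouse embryos labelled E14 was compared between 5 wild-type and 5 Setd1a+/- libraries. The libraries were chosen by the developmental stage in the sample labels and make up 10 of the 50 in the study, which sampled both genotypes with 5 libraries each at E14, E18, P7, P35 and P70. The comparison asks how loss of 1 functional copy of Setd1a alters cortical gene expression during mid-gestation. Setd1a+/- animals were heterozygous for the germline tm1d loss-of-function allele, and wild-type animals carried no targeted allele. The labels give the strain as C57BL/6NTac, while the methods of the study describe a mixed C57BL/6NTac and C57BL/6J background. The methods also describe all animals as male and the embryonic tissue as frontal brain from embryos at E14.5, obtained by pairing heterozygous males with wild-type females. Each library is therefore a mixture of the cell types of the dissected piece. The labels do not give litters, so p-values measure the spread between samples. In the fit of all 50 libraries that spread was estimated over all ages together.

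SETD1A is a catalytic subunit of a COMPASS complex, which adds methyl groups to lysine 4 of histone H3. Trimethylation of this lysine marks the promoters of active genes and is bound by reader proteins. The cortex at this stage holds dividing radial glia along the ventricle, intermediate progenitors and young neurons of the deep layers, and is covered by meninges and supplied by growing vessels.

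Sequencing gave between 35507165 and 42086907 counts for each library. The median depth was 39403889 counts for wild-type animals and 38958265 for Setd1a+/- animals. Counting error was therefore small for abundant genes but not for genes near the filter on low counts. Marker genes of neurons and radial glia were abundant in every library. All 15 cortical neuron markers and all 12 radial glia markers passed the filter on low counts, which used the libraries of all ages. Their summed levels at E14 were 5926 to 7325 and 2057 to 2647 CPM, the counts of a gene scaled to a fixed library size. The most abundant markers per length were Tubb3, a neuronal tubulin, and Fabp7, a radial glial fatty acid binding protein. The 14 midbrain and hindbrain markers summed to 0.914 to 2.56 CPM. Thalamus markers, led by Lhx2, summed to 263 to 403 CPM, and striatal neuron markers, led by Zfp503, to 248 to 402 CPM. Markers of the ganglionic eminence and its interneurons, led by Dlx1, reached 1156 to 2246 CPM, so RNA of ventral forebrain or of interneurons was present in every library.

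Several libraries stood apart before any genotype was compared. Wild-type replicate 5 held 60159 counts of Xist, the RNA of the inactive X chromosome, and 0 counts of 4 Y-linked genes, a female pattern. The other 9 libraries held 3 to 12 counts of Xist and 5803 to 9768 counts of the Y-linked genes. Markers of meninges and fibroblasts, led by Col3a1, summed to 23.2, 39.2, 217, 148 and 436 CPM in wild-type replicates 1 to 5. In Setd1a+/- replicates 1 to 5 they summed to 39.9, 1696, 242, 575 and 353 CPM. The groups overlapped, with Setd1a+/- replicate 2 far above every other library and wild-type replicates 1 and 2 and Setd1a+/- replicate 1 low.

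Endothelial and pericyte markers, led by Cldn5, summed to 262, 262, 316, 264 and 378 CPM in wild-type replicates 1 to 5. The corresponding Setd1a+/- values were 262, 1292, 286, 497 and 306 CPM, again highest in replicate 2. Erythroid markers, led by the beta-globin gene Hbb-bs, summed to 410.0, 309, 350.3, 525 and 1359 CPM in wild-type libraries and to 285, 829, 1020.3, 1073 and 1129 CPM in Setd1a+/- libraries. Wild-type replicate 5 was the highest library and Setd1a+/- replicate 1 the lowest. Cortical hem and choroid plexus markers, led by Ttr, summed to 29.0, 51.0, 421, 301 and 479.7 CPM in wild-type and 101.6, 34.6, 226, 512 and 528 CPM in Setd1a+/- libraries. Low values therefore occurred in both genotypes, in wild-type replicates 1 and 2 and Setd1a+/- replicate 2. In bulk tissue, fewer cells of a type and less RNA per cell cannot be told apart.

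**Figure D1:**
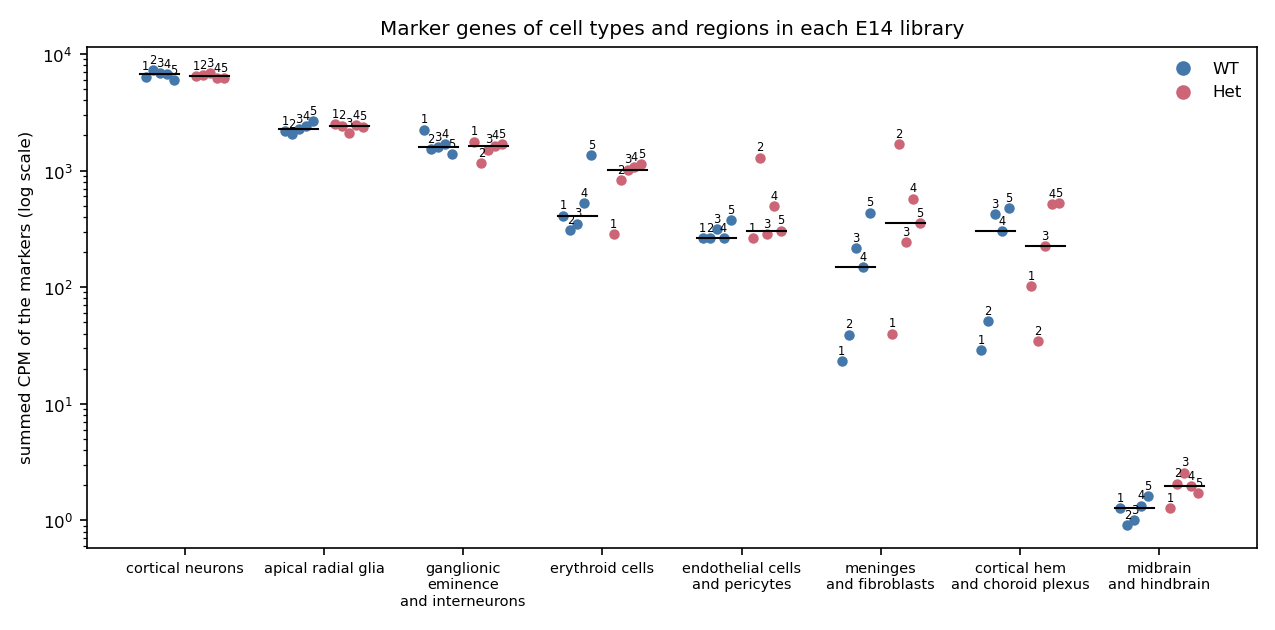
Summed CPM of marker genes for 8 cell types or regions (log scale) in the 5 wild-type (WT) and 5 Setd1a+/- (Het) libraries at E14. Points are libraries, labelled with their replicate number, and bars are group medians. Neuronal and radial glial markers varied little, while meningeal markers ranged from 23.2 to 1696 CPM.

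Libraries of 1 genotype were about as far apart as libraries of different genotypes. The root mean square log2 difference between libraries averaged 0.543 within wild-type pairs, 0.559 within Setd1a+/- pairs and 0.547 between genotypes. Principal components 1 and 2 held 35.9% and 19.2% of the variance of the 10 libraries, and Setd1a+/- replicate 2 had the highest score on both. The common biological coefficient of variation was 19.4% at E14, against 7.07% to 15.7% at the 4 other ages.

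Setd1a itself was not lower in Setd1a+/- cortex. Its level was 129, 129.8, 136, 119 and 119 CPM in wild-type replicates 1 to 5 and 150.2, 136, 128, 139.7 and 130.1 CPM in Setd1a+/- replicates 1 to 5. The groups overlapped, and the log2 fold change was 0.11 ± 0.05 (SE), with an adjusted p of 0.394 (edgeR quasi-likelihood test with Benjamini-Hochberg adjustment). In the 40 libraries of the other ages Setd1a was called higher in Setd1a+/- cortex, at 0.10 ± 0.03 (edgeR adjusted p = 0.0131), while at P70 alone it was at -0.03 ± 0.05. Counts cover all exons of the gene at chr7:127776670-127800122, so they do not show whether a transcript lacks a deleted exon and do not check the genotype labels. The study states, from an earlier report, that Setd1a protein was lower in heterozygous than in wild-type cortical tissue. Of the exonic length of Setd1a, 51.8% is shared with Gm49388, and reads in the shared part were counted for both.

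The level of 21 of 16330 protein-coding genes was called different between genotypes at E14, which is 0.129% of those tested. Of these, 17 (0.104%) were lower and 4 (0.0245%) higher in Setd1a+/- cortex (adjusted p under 0.05, edgeR quasi-likelihood test over all 50 libraries with Benjamini-Hochberg adjustment). Among the lower genes were Zcwpw1, which encodes a histone reader, the mismatch repair gene Mlh3 and the mitochondrial tRNA synthetase gene Vars2. The log2 fold changes of the lower genes ran from -0.71 to -0.21, with a median of -0.32, and those of the higher genes from 0.41 to 1.65. In 15 of the 21 genes the 5 Setd1a+/- libraries did not overlap the 5 wild-type libraries, against 0.784% of all tested genes, 0.606% with Setd1a+/- lower and 0.178% with Setd1a+/- higher. The 21 genes were chosen for a small p in the same libraries. Separate groups, here and in single called genes below, follow largely from that choice. The fit of 50 libraries estimated the spread of each gene over all ages together. The common biological coefficient of variation was 19.4% at E14, against 7.07% to 15.7% at the other ages. The E14 p-values of that fit therefore rest partly on less variable ages. Fitted alone, the 10 E14 libraries gave 0 called genes of 15080 by edgeR. With the other ages in the fit, the count rested on single libraries. It was 1 without wild-type replicate 1, 5 without wild-type replicate 2, 9 (0.0549%) without Setd1a+/- replicate 2, of which 0.0366% of genes were lower and 0.0183% higher, and 10 without Setd1a+/- replicate 4. It was 149 without Setd1a+/- replicate 5 (0.908%, with 0.372% lower and 0.536% higher), 391 without Setd1a+/- replicate 3 (2.38%, with 0.799% lower and 1.59% higher), 429 without Setd1a+/- replicate 1 (2.61%, with 0.554% lower and 2.06% higher) and 747 without wild-type replicate 5.

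**Figure D2:**
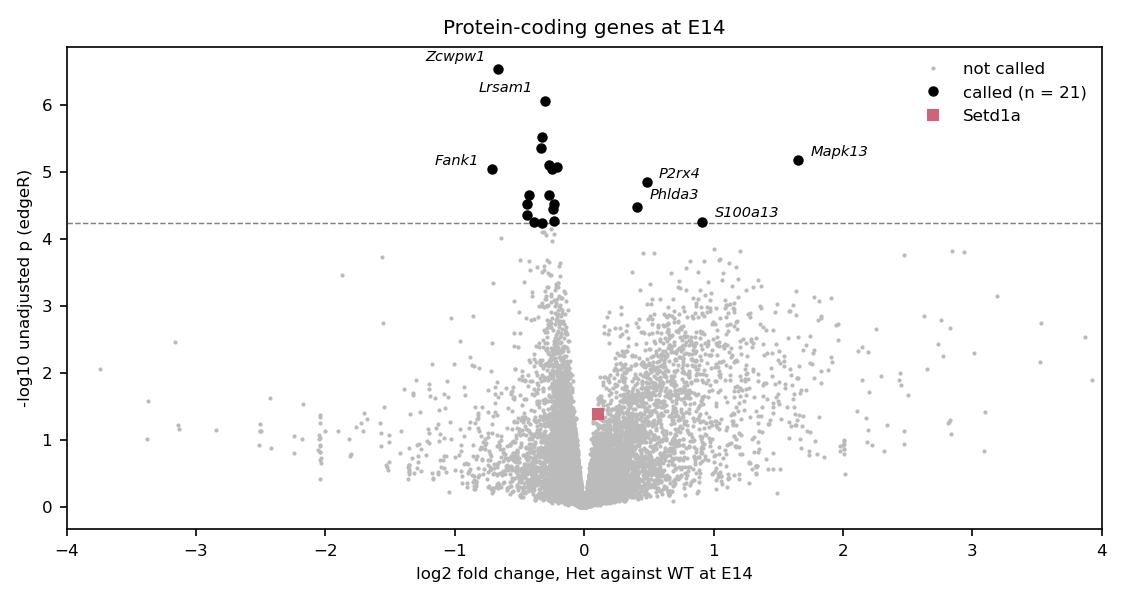
Log2 fold change of Setd1a+/- against wild-type cortex at E14 and -log10 of the unadjusted edgeR p for each protein-coding gene. Black points are the 21 called genes, the red square is Setd1a and the dashed line lies at the largest p among called genes. 1 gene lies outside the plotted range of log2 fold changes from -4 to 4.

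Zcwpw1, a reader of trimethylated lysine 4 of histone H3, had the smallest p. Its level was 9.28, 7.45, 9.37, 10.2 and 9.41 CPM in wild-type replicates 1 to 5 and 6.87, 5.28, 6.04, 4.73 and 5.97 CPM in Setd1a+/- replicates 1 to 5. Every Setd1a+/- library lay below every wild-type library, and Zcwpw1 fell by 36.9% (log2 fold change -0.66 ± 0.11, edgeR adjusted p = 0.00474). It was the only gene called in all 10 fits that left out 1 E14 library and kept the other ages. With the E14 libraries alone it was at -0.63 and was not called (edgeR adjusted p = 0.9998). Lrsam1, a ubiquitin ligase, came next, with 38.1, 37.2, 33.6, 32.5 and 31.4 CPM in wild-type and 30.1, 26.95, 28.01, 28.4 and 26.8 CPM in Setd1a+/- libraries. These groups did not overlap either, and the log2 fold change was -0.30 ± 0.05 (edgeR adjusted p = 0.00707). Without wild-type replicate 1 the edgeR adjusted p of Lrsam1 was 0.0642, while its log2 fold change ran from -0.33 to -0.26 over the 10 fits.

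The called gene Mlh3, a mismatch repair protein needed for meiotic crossovers, measured 21.6, 23.2, 19.9, 18.5 and 21.04 CPM in wild-type replicates 1 to 5 and 15.8, 16.8, 16.7, 16.4 and 17.5 CPM in Setd1a+/- replicates 1 to 5. All Setd1a+/- values lay below all wild-type values, with a log2 fold change of -0.33 ± 0.06 (edgeR adjusted p = 0.0164). The DNA helicase gene Recql5 had a log2 fold change of -0.24 ± 0.05, and Ercc6l2, a helicase-like repair gene, of -0.32 ± 0.07. Mlh3 was not called without wild-type replicates 1 or 2, and Recql5 and Ercc6l2 were not called without wild-type replicates 1, 2 or 3 or Setd1a+/- replicates 2 or 4, nor Ercc6l2 without wild-type replicate 4. The largest adjusted p of the 3 genes in these fits was 0.218. Over all fits without 1 library the log2 fold change ran from -0.37 to -0.28 for Mlh3, from -0.28 to -0.22 for Recql5 and from -0.36 to -0.28 for Ercc6l2.

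Vars2, the valyl-tRNA synthetase of mitochondria, measured 48.2, 53.5, 52.1, 46.2 and 45.3 CPM in wild-type and 42.5, 40.7, 40.4, 42.4 and 40.3 CPM in Setd1a+/- replicates 1 to 5. The groups were separate and the log2 fold change was -0.25 ± 0.05 (edgeR adjusted p = 0.0164). Tmem143, a membrane protein assigned to mitochondria, measured 12.5, 12.6, 11.2, 12.6 and 11.6 CPM in wild-type and 9.11, 10.2, 8.27, 9.48 and 10.9 CPM in Setd1a+/- replicates 1 to 5. Its groups were also separate, with a log2 fold change of -0.34 ± 0.06 and the same edgeR adjusted p of 0.0164. Ogdhl, a relative of the oxoglutarate dehydrogenase of the citric acid cycle, had a log2 fold change of -0.27 ± 0.06, and its groups overlapped. Tmem143 was not called without wild-type replicates 1 or 2. Vars2 was not called without wild-type replicates 1, 2 or 3 or Setd1a+/- replicate 2. Ogdhl was not called without wild-type replicates 1, 2, 3 or 4 or Setd1a+/- replicates 2 or 4. Over all fits without 1 library the log2 fold change ran from -0.28 to -0.22 for Vars2, from -0.38 to -0.29 for Tmem143 and from -0.32 to -0.24 for Ogdhl.

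The remaining 9 lower genes had varied roles. Fank1 had the largest log2 fold change, -0.71 ± 0.14, followed by Crlf2, a cytokine receptor subunit, at -0.45 ± 0.10, Frg2f1 at -0.44 ± 0.10, Nat9, an acetyltransferase gene, at -0.42 ± 0.09 and Prickle4 at -0.38 ± 0.09. Gatd1 was at -0.27 ± 0.05, Tkfc, a triose kinase, at -0.24 ± 0.05, Ccdc91 at -0.23 ± 0.05 and Odr4 at -0.21 ± 0.04. Of the exonic length of Prickle4, 81.8% overlaps other genes, most of it Tomm6os (62.2%), and 20.01% of that of Tkfc does, most of it Cyb561a3 (12.9%), so their counts are uncertain. Wild-type replicate 1 was needed for the call of all 9, and wild-type replicate 2 for all but Fank1. The calls of Crlf2, Frg2f1, Nat9, Prickle4, Tkfc and Ccdc91 were also lost without Setd1a+/- replicate 2 or 4, that of Fank1 without wild-type replicate 4 or Setd1a+/- replicate 2, and that of Odr4 without Setd1a+/- replicate 4. Wild-type replicate 3 was needed for Crlf2, Frg2f1, Tkfc and Ccdc91, and wild-type replicate 4 for Nat9, Frg2f1, Prickle4 and Ccdc91. The largest adjusted p of these genes in a fit without 1 library was 0.245 by edgeR, for Prickle4 without Setd1a+/- replicate 2. Over these fits the log2 fold change ran from -0.80 to -0.59 for Fank1, -0.49 to -0.39 for Crlf2 and -0.58 to -0.35 for Frg2f1. It ran from -0.48 to -0.39 for Nat9, -0.45 to -0.33 for Prickle4 and -0.30 to -0.24 for Gatd1. For Tkfc, Ccdc91 and Odr4 it ran from -0.29 to -0.20, -0.26 to -0.19 and -0.23 to -0.18.

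The 4 higher genes reached at most 10.7 CPM in any library. Mapk13, the p38 delta kinase, measured 0.0587, 0.190, 0.227, 0.135 and 0.165 CPM in wild-type and 0.517, 0.480, 0.415, 0.455 and 0.629 CPM in Setd1a+/- replicates 1 to 5, from 2 to 27 counts. All Setd1a+/- libraries were higher, with a log2 fold change of 1.65 ± 0.32 (edgeR adjusted p = 0.0164). P2rx4, an ATP-gated ion channel, measured 3.94, 3.63, 4.48, 3.44 and 4.47 CPM in wild-type and 4.74, 7.13, 5.24, 5.64 and 5.15 CPM in Setd1a+/- libraries. The groups were again separate, and replicate 2 was the highest. Its log2 fold change was 0.48 ± 0.10 (edgeR adjusted p = 0.0233).

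Phlda3, a p53 target that restrains Akt signalling, measured 5.70, 6.26, 6.22, 6.60 and 6.38 CPM in wild-type and 7.79, 10.7, 7.18, 8.82 and 6.95 CPM in Setd1a+/- libraries, with a log2 fold change of 0.41 ± 0.09. S100a13, a calcium-binding protein gene, measured 0.822, 0.542, 0.579, 0.785 and 1.04 CPM in wild-type and 0.977, 2.58, 1.12, 1.01 and 1.42 CPM in Setd1a+/- libraries, with a log2 fold change of 0.91 ± 0.20. The groups were separate for Phlda3 and overlapped for S100a13, and Setd1a+/- replicate 2 was the highest library for both, as for the meningeal and endothelial markers. With the meningeal marker level of each library as a covariate, the log2 fold changes were 0.35 for P2rx4, 0.30 for Phlda3, 0.59 for S100a13 and 1.63 for Mapk13, and none was called (smallest edgeR adjusted p = 0.129). Without Setd1a+/- replicate 2 the largest adjusted p of these higher genes was that of S100a13, 0.434 by edgeR, and P2rx4 and Phlda3 were not called either. Mapk13 lost its call without wild-type replicate 1, as did the 3 other higher genes. Phlda3 and S100a13 were also not called without wild-type replicates 2, 3 or 4, P2rx4 without wild-type replicates 2 or 4, and P2rx4 and Phlda3 without Setd1a+/- replicate 4. Over all fits without 1 library the log2 fold change ran from 1.46 to 1.82 for Mapk13 and from 0.38 to 0.53 for P2rx4. It ran from 0.30 to 0.47 for Phlda3 and from 0.58 to 1.06 for S100a13.

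**Figure D3:**
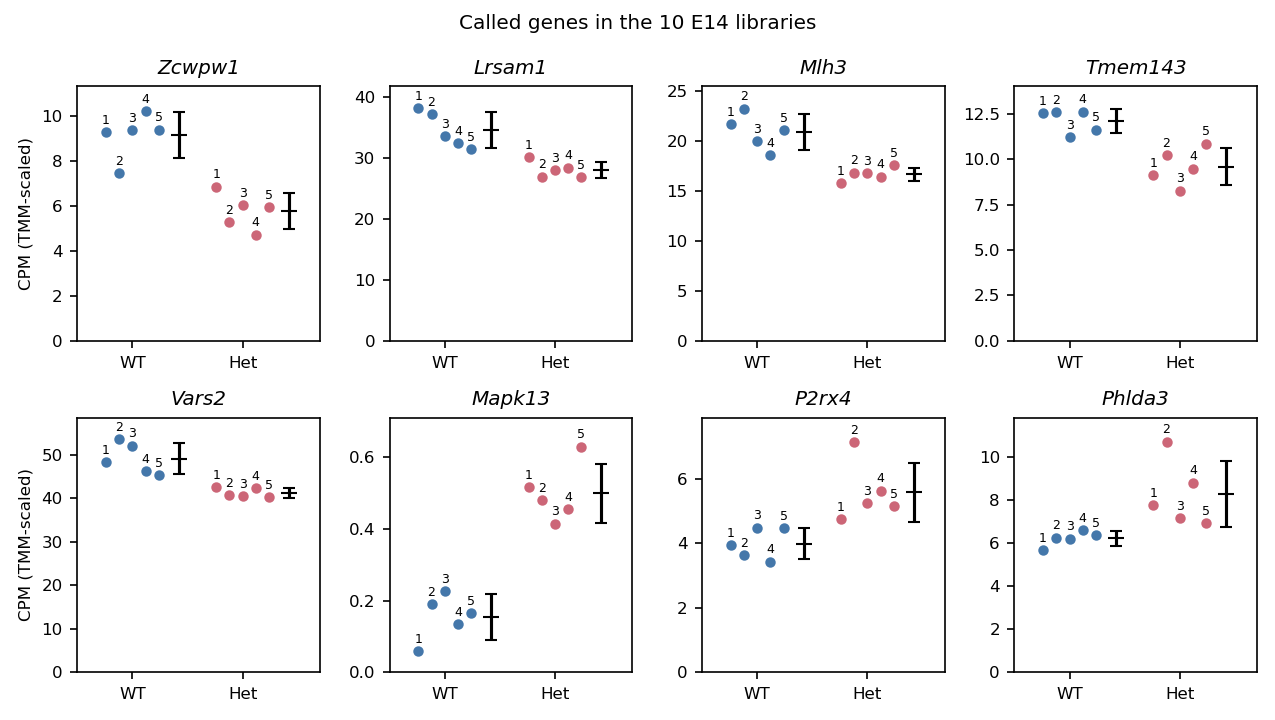
CPM of 8 called genes in each E14 library, with replicate numbers beside the points and the mean ± SD of the 5 libraries to the right. The 5 Setd1a+/- (Het) libraries lie below the 5 wild-type (WT) libraries for Zcwpw1, Lrsam1, Mlh3, Tmem143 and Vars2, and above them for Mapk13, P2rx4 and Phlda3.

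Because SETD1A methylates histones at promoters rich in CpG, the promoters of the genes with the smallest p in each direction are shown. They are RefSeq windows on GRCm38.p6 of 250 bases before to 50 after the start, read along the gene's strand with the motif CG, which is its own reverse complement, in capitals.
Zcwpw1: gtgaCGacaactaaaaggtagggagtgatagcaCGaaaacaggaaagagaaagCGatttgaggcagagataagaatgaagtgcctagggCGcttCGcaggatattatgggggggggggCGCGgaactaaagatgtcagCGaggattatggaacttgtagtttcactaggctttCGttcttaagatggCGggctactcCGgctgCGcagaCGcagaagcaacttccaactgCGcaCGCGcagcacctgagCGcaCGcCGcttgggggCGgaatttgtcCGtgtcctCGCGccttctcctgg
Lrsam1: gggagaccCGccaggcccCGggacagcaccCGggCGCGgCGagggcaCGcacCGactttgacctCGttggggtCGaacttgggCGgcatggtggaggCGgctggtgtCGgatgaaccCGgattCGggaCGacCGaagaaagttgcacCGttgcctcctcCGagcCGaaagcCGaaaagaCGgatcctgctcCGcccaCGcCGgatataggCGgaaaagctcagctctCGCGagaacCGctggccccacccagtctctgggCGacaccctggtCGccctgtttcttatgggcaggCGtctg
Mapk13: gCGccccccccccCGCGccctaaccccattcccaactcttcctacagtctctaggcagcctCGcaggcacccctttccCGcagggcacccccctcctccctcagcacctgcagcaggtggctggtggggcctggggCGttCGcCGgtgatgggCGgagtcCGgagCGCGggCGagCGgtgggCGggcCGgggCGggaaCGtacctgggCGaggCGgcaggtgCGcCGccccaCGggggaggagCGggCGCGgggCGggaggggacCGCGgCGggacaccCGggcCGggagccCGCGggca
P2rx4: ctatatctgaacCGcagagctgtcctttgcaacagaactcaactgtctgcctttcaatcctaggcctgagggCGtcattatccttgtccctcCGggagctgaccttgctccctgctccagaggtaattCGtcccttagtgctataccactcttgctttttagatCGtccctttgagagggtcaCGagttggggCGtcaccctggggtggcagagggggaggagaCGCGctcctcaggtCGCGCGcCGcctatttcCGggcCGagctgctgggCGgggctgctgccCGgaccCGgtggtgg
The windows are those of Zcwpw1 at chr5:137787552-137787851 (+ strand), Lrsam1 at chr2:32961592-32961891 (- strand), Mapk13 at chr17:28769067-28769366 (+ strand) and P2rx4 at chr5:122707294-122707593 (+ strand). They held 23, 32, 34 and 18 copies of CG, and 39.3%, 16.5%, 13.2% and 55.2% of all windows held at least as many. Windows of 12494 of the 16330 tested genes were matched, of which 99.3% held at least 1 CG, with a median of 19 copies. The median was 23 in the 16 of 17 lower genes with a window and 22 in the 4 higher genes. A count of CG describes these letters only.

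To ask how far the E14 libraries carried the result alone, the 10 libraries were fitted without the other ages. edgeR then called 0 of 15080 genes, with 527 genes (3.49%) at an unadjusted p under 0.05. On the same libraries limma-voom called 0 genes, limma-voom with sample quality weights 0 and DESeq2 5, of which 1 was among the 21. All 21 genes kept their sign and had an unadjusted p under 0.05 in that edgeR fit. They were chosen for a small p with the same 10 E14 libraries, so this follows largely from their selection. In the fit of 50 libraries, 1895 genes (11.6%) had an unadjusted p under 0.05. With DESeq2 over 50 libraries the count was 114, 51 lower and 63 higher, and with library size as the only scaling it was 3, 2 lower and 1 higher.

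**Figure D4:**
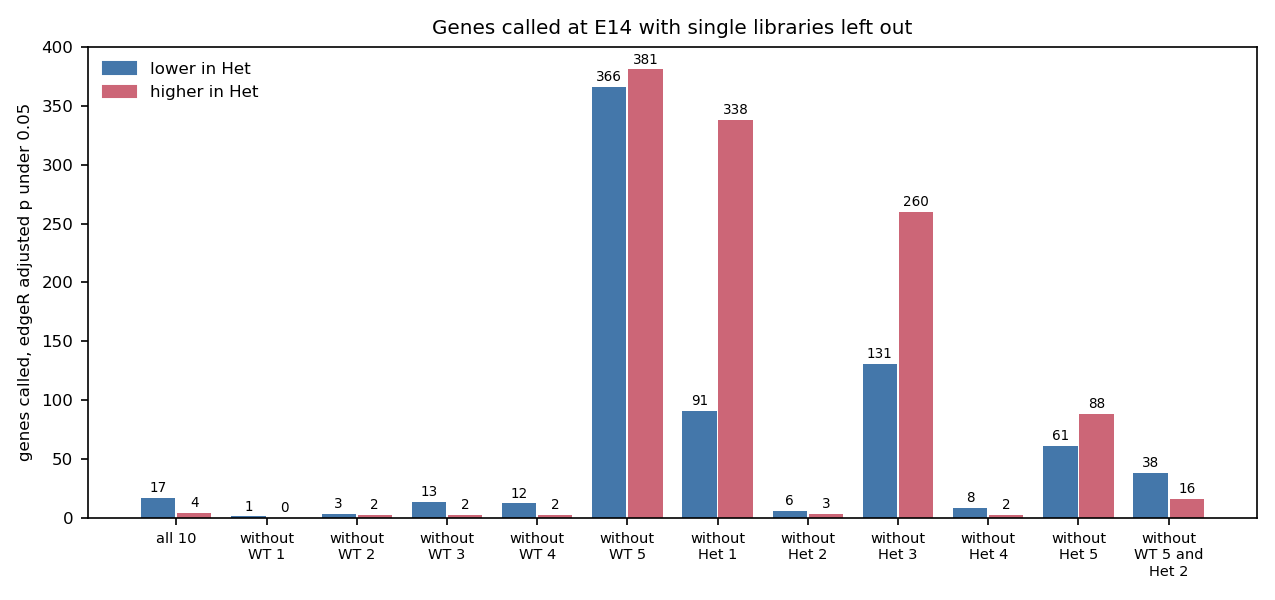
Number of genes called at E14 (edgeR, adjusted p under 0.05), lower and higher in Setd1a+/- (Het) cortex, with all 10 libraries, without each library in turn, and without wild-type (WT) replicate 5 and Setd1a+/- replicate 2 together. Counts ran from 1 without wild-type replicate 1 to 747 without wild-type replicate 5.

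Without wild-type replicate 5, the library with the female pattern, 366 genes were lower (2.23%) and 381 higher (2.32%), in all 4.55% of 16409 genes tested. The 10 genes with the smallest p among those added were 8 lower genes, Prrt1, Cers1, Gdf1, Rnft2, Dnajb14, Npr2, Cpt1c and Diras1, and the higher genes Riox2 and Tmem100. These 10 genes were chosen because leaving out wild-type replicate 5 added their calls. A position of that library towards the Setd1a+/- values therefore follows largely from the choice. Prrt1, a partner of AMPA receptors, measured 41.99, 51.7, 33.3, 30.1 and 19.9 CPM in wild-type and 24.6, 18.7, 30.2, 21.4 and 18.3 CPM in Setd1a+/- replicates 1 to 5. Wild-type replicate 5 thus lay among the Setd1a+/- libraries, and the log2 fold change was -0.64 ± 0.15 with it and -0.79 without it (edgeR adjusted p = 0.0570 and 0.00335). Riox2, a ribosomal oxygenase gene, measured 8.34, 7.75, 8.21, 8.55 and 12.5 CPM in wild-type and 10.3, 10.8, 9.73, 11.2 and 12.8 CPM in Setd1a+/- libraries. Here too wild-type replicate 5 lay in the Setd1a+/- range, and the log2 fold change was 0.27 ± 0.09 with it and 0.42 without it. The same library was the lowest wild-type value for Cers1, a ceramide synthase gene, at 36.5 against 47.6 to 59.0 CPM, and for Cpt1c, a brain carnitine palmitoyltransferase, at 66.3 against 76.3 to 89.6 CPM. The exons of Gdf1 lie wholly within those of Cers1, so the counts of Gdf1 cannot be told apart from those of Cers1, of which 42.5% of the exonic length is shared with Gdf1.

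Among the genes higher without wild-type replicate 5 were 9 of 10 meningeal markers, 4 of 13 endothelial and pericyte markers and 3 of 11 tested erythroid markers, against 2.32% of all genes. The median log2 fold change of the meningeal markers was 1.53 with all libraries, when none was called by edgeR, and 2.19 without wild-type replicate 5. It was 0.70 without Setd1a+/- replicate 2, whose meningeal level was the highest. Without both libraries 54 genes were called (0.329%), 38 lower (0.232%) and 16 higher (0.0976%). No meningeal marker was among them, although their median log2 fold change was 1.398, and no endothelial or pericyte marker, while 2 of 10 erythroid markers tested there were still called higher, against 0.0976% of all genes, with a median of 0.97. Of the 381 higher genes 16 remained called, and of the 366 lower genes 38. The 21 genes first called kept 12 members, 10 lower and 2 higher. With the meningeal marker level of each library as a covariate, edgeR called 1 gene, Zcwpw1, at -0.67 (adjusted p = 0.0140), and 606 genes had an unadjusted p under 0.05. Here all 21 genes kept their sign with an unadjusted edgeR p under 0.05, but they had been chosen on the same libraries. The median log2 fold change of the 17 lower genes was then -0.29, and that of the 4 higher genes 0.47 in place of 0.70. Both alternatives were chosen after the data were seen.

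The same genes were then tested in the 40 libraries of the 4 other ages. These libraries also helped to set the spread in the fit that gave the E14 calls, so the tests are not independent. In the 40 libraries alone, edgeR called 821 of 16216 genes for the mean effect of genotype, which is 5.06%, with 3.55% of genes lower and 1.51% higher. All 17 genes lower at E14 were below 0, against 47% of all genes, and 15 were called lower. The exceptions were Fank1, at -0.18 ± 0.06 (edgeR adjusted p = 0.0835), and Prickle4, at -0.07 ± 0.04 (edgeR adjusted p = 0.316). Zcwpw1 was at -0.42 ± 0.05, Vars2 at -0.22 ± 0.03, Tmem143 at -0.21 ± 0.03 and Odr4 at -0.20 ± 0.02. Of the 4 higher genes only Phlda3 was called, at 0.21 ± 0.04. Mapk13 was at 0.31 ± 0.15 (edgeR adjusted p = 0.254), while P2rx4 at -0.02 ± 0.04 and S100a13 at -0.04 ± 0.07 had the opposite sign. At each of the 4 single ages, 16 or 17 of the 17 lower genes were below 0.

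All 21 genes had a larger absolute log2 fold change at E14 than in the mean effect of the 4 other ages, although Odr4 and Ccdc91 were further from 0 at P7 (-0.29 and -0.27), Vars2 at P35 and P70 (-0.27 and -0.31) and Recql5 at P70 (-0.25). They were called for their size at E14, which favours large estimates there. The median of the 17 lower genes was -0.32 at E14 and -0.18 in the other ages. The difference between the E14 effect and the mean of the 4 other effects passed the threshold for 0 of 16330 genes by edgeR and for 0 by limma-voom, while DESeq2 called 7, and 1702 genes (10.4%) had an unadjusted edgeR p under 0.05. Of the 21 genes, 12 had an unadjusted p under 0.05 and the smallest adjusted p was 0.228. Without wild-type replicate 5 this test called 562 genes, without Setd1a+/- replicate 1 it called 191 and without Setd1a+/- replicate 3 it called 130. It called 0 without wild-type replicate 5 and Setd1a+/- replicate 2 together.

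**Figure D5:**
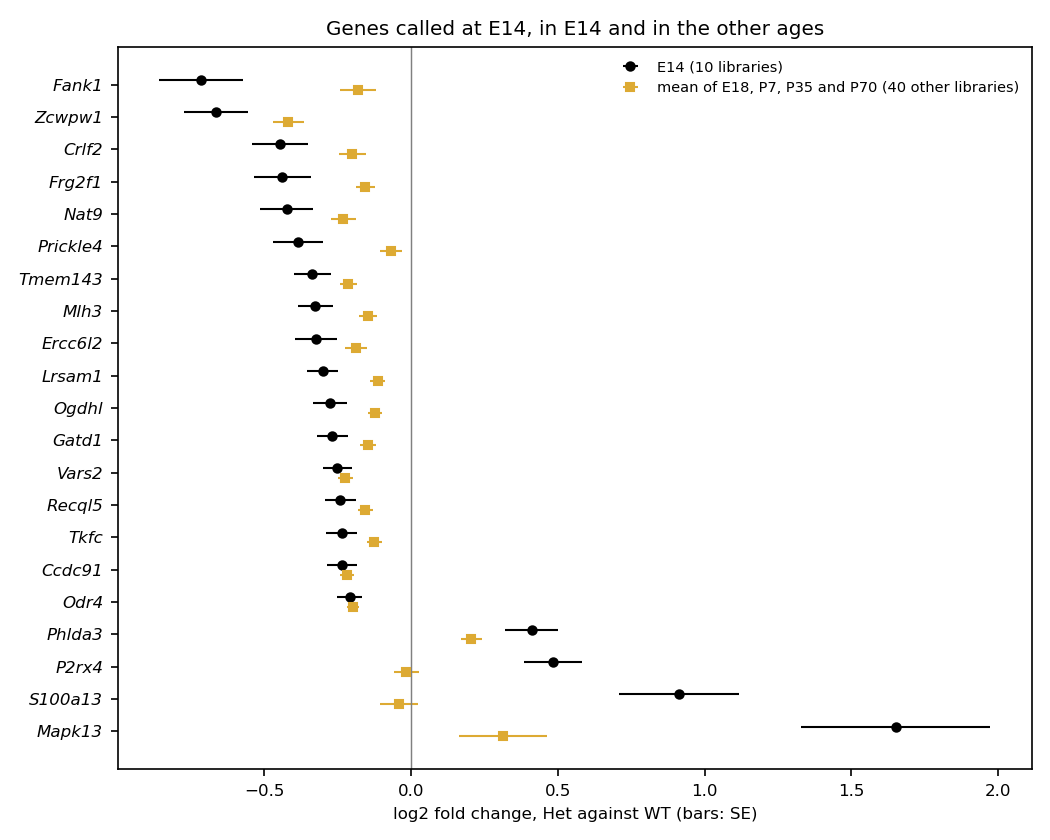
Log2 fold change (± SE) of Setd1a+/- against wild-type cortex for the 21 genes called at E14, in the E14 libraries (circles) and as the mean effect in the 40 libraries of the other ages (squares). The 17 lower genes lie below 0 in both, while P2rx4 and S100a13 lie near 0 in the other ages.

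The genes called without wild-type replicate 5 were compared with the other ages in the same way. Of the 366 lower genes, 79 were also called lower there (21.6%), against 3.55% of all genes. The 366 include the 17 lower genes called with all libraries, of which 15 were called lower there. Of the 366, 56.0% were below 0 there, against 47% of all genes. Of 374 higher genes tested there, 129 (34.5%) were above 0, so that most had the opposite sign, and 10 were called higher (2.67%), against 1.51% of all genes, and the 4 higher genes called with all libraries are among the 381 higher genes. The difference between directions was not tested. Without wild-type replicate 5 and Setd1a+/- replicate 2 together, 32 of 38 lower genes were below 0 in the other ages and 19 were called lower, against 47% and 3.55% of all genes. Of 12 higher genes tested there, 11 were above 0 and 4 were called higher, against 1.51% of all genes called higher. The 38 lower genes include 10 of the 17 lower genes called with all libraries, and the 16 higher genes include 2 of the 4.

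Genes of the H3K4 methylation machinery were examined as lists. A range after a median gives its lowest and highest values over the 10 fits that left out 1 E14 library. Across all tested genes 61.3% of log2 fold changes were below 0 with a median of -0.03, and this share was 48.2% with scaling by library size only. Of the 6 H3K4 methyltransferases 5 were below 0, none was called by edgeR, and the median was -0.14 (-0.11 with library size only). It ran from -0.23 without wild-type replicate 5 to -0.07 without Setd1a+/- replicate 5, and was -0.02 with the meningeal covariate. Kmt2a was at -0.20 ± 0.12 and Kmt2c at -0.16 ± 0.08. Of 16 COMPASS subunits 15 were below 0 (10 with library size only, and at least 11 without any 1 library), with a median of -0.05 (-0.07 to -0.03). Hcfc1 was at -0.17 ± 0.06 and was called in 1 of the 10 fits, without Setd1a+/- replicate 1 (edgeR adjusted p = 0.0325). Kdm6a, which escapes X inactivation, was at -0.16 ± 0.10 with its highest value, 68.4 CPM, in wild-type replicate 5, the library with the female pattern. All 7 H3K4 demethylases were below 0 (4 with library size only and 5 without Setd1a+/- replicate 2), with a median of -0.04 (-0.07 without wild-type replicate 4 to -0.03 without wild-type replicate 3), and Kdm5c at -0.14 ± 0.08 and Kdm1a at -0.06 ± 0.04. Of 17 tested readers of trimethylated H3K4, 15 were below 0 (12 with library size only) with a median of -0.05 (-0.08 without wild-type replicate 5 to -0.04), and Zcwpw1 alone was called. With the meningeal covariate 9 of 16 COMPASS subunits, 4 of 7 demethylases and 9 of 17 readers were below 0. Their medians were then -0.02, -0.00541 and -0.00351. With library size only these medians were -0.01, -0.00605 and -0.02.

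Mitochondrial lists were mostly slightly below 0, as were 61.3% of all tested genes, or 48.2% with library size only. Of 17 mitochondrial aminoacyl-tRNA synthetases 15 were below 0, with a median of -0.11 (-0.15 to -0.08, and -0.08 with library size only), and Vars2 alone was called with all libraries. Without Setd1a+/- replicate 5, 2 of 17 were called lower, against 0.372% of all genes. Of 19 complex I assembly factors 17 were below 0 (16 with library size only). Their median was -0.09 (-0.14 without Setd1a+/- replicate 3 to -0.05 without Setd1a+/- replicate 2, and -0.06 with library size only). None was called by edgeR with all libraries, 1 of 19 was called lower without wild-type replicate 5, against 2.23% of all genes, and 3 without Setd1a+/- replicate 1, against 0.554%. Foxred1, an oxidoreductase-like assembly factor, measured 36.1, 35.1, 35.1, 34.2 and 34.5 CPM in wild-type and 32.2, 25.4, 30.4, 30.7 and 32.7 CPM in Setd1a+/- replicates 1 to 5. Its groups did not overlap, yet with a log2 fold change of -0.21 ± 0.06 it was not called (edgeR adjusted p = 0.117). Rtn4ip1 was at -0.29 ± 0.08 (edgeR adjusted p = 0.113). Both were called without Setd1a+/- replicate 1 (0.0408 and 0.0234), and Foxred1 also without wild-type replicate 5 (0.0476). Of 36 complex I subunits 26 were below 0 (22 with library size only), with a median of -0.04 (-0.00824 with library size only). This median ran from -0.10 without wild-type replicate 3 to -0.00394 without Setd1a+/- replicate 2. It became 0.03 without wild-type replicate 5 and Setd1a+/- replicate 2. Ndufc1 was at -0.30 ± 0.08, Ndufa7 at -0.18 ± 0.07 and Ndufa3 at -0.13 ± 0.07, none called with all libraries, while Ndufc1 was called without Setd1a+/- replicates 3 or 5 (edgeR adjusted p = 0.0212 and 0.0425). In the 40 libraries of the other ages edgeR called all of these named genes lower. Foxred1 was there at -0.27 ± 0.03, Rtn4ip1 at -0.24 ± 0.04, Ndufc1 at -0.24 ± 0.03, Ndufa7 at -0.16 ± 0.02 and Ndufa3 at -0.10 ± 0.02.

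D2hgdh, Tmem223, Nudt8 and Gnpat, also named by the study as changed in RNA, were not called at E14 by edgeR with all libraries. The study tested genotype over all ages together, controlling for age. In the 40 libraries of the other ages all of them were called lower, at -0.37 ± 0.05, -0.31 ± 0.04, -0.39 ± 0.06 and -0.13 ± 0.02 (largest edgeR adjusted p = 2.12e-05). At E14 D2hgdh, which oxidises D-2-hydroxyglutarate, was at -0.31 ± 0.09 (edgeR adjusted p = 0.113) with separate groups, and Tmem223 was at -0.37 ± 0.09 (edgeR adjusted p = 0.0847). Tmem223 was called by DESeq2 (adjusted p = 0.0287) and in 5 of the 10 edgeR fits without 1 library, those without wild-type replicates 3 or 5 or Setd1a+/- replicates 1, 3 or 5 (smallest adjusted p = 0.0193). D2hgdh was called without wild-type replicate 5 (edgeR adjusted p = 0.0295). Nudt8 was at -0.41 ± 0.12, with 65.3% of its exonic length shared with Gm49405, and was called without wild-type replicate 5 or Setd1a+/- replicate 3 (edgeR adjusted p = 0.0234 and 0.0390), and Gnpat, a peroxisomal enzyme of ether lipid synthesis, was at -0.12 ± 0.04. The 37 subunits of complexes II to V and the 78 mitochondrial ribosomal proteins had medians of -0.03 and -0.04, which became 0.01 and -0.01 with library size only. Without 1 library these medians ran from -0.09 to 0.01 and from -0.09 to -0.00159, each highest without wild-type replicate 5. The 13 mitochondrially encoded genes had a median of 0.03 (-0.02 without wild-type replicate 5 to 0.05), with the low-count genes mt-Atp8 at -0.71 ± 0.23 and mt-Atp6 at -0.46 ± 0.20, while 7 of the 13 were above 0. When wild-type replicate 5 was left out, mt-Atp8 was called lower (edgeR adjusted p = 0.0452) and 1 other of the 13 higher, against 2.23% and 2.32% of all genes. None of these was called at E14 by edgeR with all libraries.

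Stress and growth lists had medians near 0, and several changed sign without 1 library. Of 23 p53 target genes 18 were above 0, with a median of 0.08 (0.03 without Setd1a+/- replicate 1 to 0.11), and Phlda3 was called. Of 20 hypoxia-inducible genes 17 were above 0, with a median of 0.11 (0.06 without Setd1a+/- replicate 5 to 0.14) and Egln3 at 0.29 ± 0.11. Slc2a1 was at 0.45 ± 0.18, with 203 CPM in Setd1a+/- replicate 2, and at 0.10 without that library and 0.10 with the meningeal covariate. Of 17 glycolytic enzymes 12 were above 0, with a median of 0.06 (0.03 without wild-type replicate 3 to 0.10 without wild-type replicate 5), Pfkp at -0.19 ± 0.16 and Hk2 at 0.18 ± 0.14. Of the 17, 1 was called lower and 2 higher without wild-type replicate 5, against 2.23% and 2.32% of all genes, and 1 was called higher without that library and Setd1a+/- replicate 2, against 0.0976%. Of 19 cholesterol synthesis enzymes 16 were below 0, with a median of -0.08 (-0.11 to -0.05 without wild-type replicate 2) and Tm7sf2 at -0.23 ± 0.09 (called without wild-type replicate 5, edgeR adjusted p = 0.0411). Of 83 cytosolic ribosomal proteins 61 were above 0, with a median of 0.03 that ran from -0.05 without wild-type replicate 3 to 0.09 without wild-type replicate 5. Cell cycle genes (23) had a median of 0.01 and DNA replication genes (22) of -0.01, which became 0.01 with library size only. These ran from -0.08 and -0.09 without wild-type replicate 2 to 0.09 and 0.06 without wild-type replicate 5, when 22 of 23 and 20 of 22 genes were above 0. Without wild-type replicate 5 and Setd1a+/- replicate 2 all 23 and all 22 were above 0, with medians of 0.13 and 0.12. With all libraries 13 of 23 and 8 of 22 were above 0. The meningeal covariate left 6 and 4 above 0, with medians of -0.02 and -0.04. Immediate early genes (15) had a median of 0.05, from -0.06 without Setd1a+/- replicate 2 to 0.15 without wild-type replicate 2. Apart from Phlda3, edgeR called no gene of these lists with all libraries.

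Progenitor and neuron markers had small medians that moved with single libraries. All 8 intermediate progenitor markers were above 0, with a median of 0.09 (0.00883 without wild-type replicate 2 to 0.18 without wild-type replicate 5), and 8 of 12 radial glia markers, with a median of 0.04 (-0.04 without wild-type replicate 2 to 0.11 without wild-type replicate 5) and Hes1 at 0.20 ± 0.13. Hes1 was called higher without wild-type replicate 5, at 0.41 (edgeR adjusted p = 0.0378), and 1 of the 12 lower, against 2.32% and 2.23% of all genes. Of 15 cortical neuron markers 11 were below 0, with a median of -0.05 (-0.13 without wild-type replicate 5 to 0.01 without wild-type replicate 2) and Slc17a7 at -0.25 ± 0.19. Of 17 ganglionic eminence markers 15 were below 0, with a median of -0.17 that ran from -0.25 without wild-type replicate 5 to -0.04 without wild-type replicate 1 and became 0.02 with the meningeal covariate. All 10 striatal neuron markers were below 0 (9 with library size only, and at least 8 without any 1 library). Their median was -0.29 (-0.39 to -0.25), with Ikzf1 at -0.66 ± 0.40. With the meningeal covariate the striatal median was -0.11, 2 markers were above 0 and Ikzf1 was at -0.06. Their summed level was 268 to 402 CPM in wild-type and 248 to 314 CPM in Setd1a+/- libraries, which overlapped. Cajal-Retzius, thalamic and cortical hem markers had medians of 0.05, 0.02 and 0.12. Without 1 library these ran from -0.06 (wild-type replicate 5) to 0.08, from -0.20 (Setd1a+/- replicate 3) to 0.15 (Setd1a+/- replicate 2) and from -0.09 (wild-type replicate 1) to 0.43 (wild-type replicate 5). None of these genes was called by edgeR with all libraries.

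Markers of vessels, blood and coverings were mostly above 0 without being called by edgeR when all libraries were kept. All 13 endothelial and pericyte markers were above 0, with a median of 0.73, Vtn at 1.10 ± 0.34 and Cdh5 at 1.09 ± 0.32. Of 10 meningeal markers 9 were above 0, with Col1a1 at 1.95 ± 0.59 and Col1a2 at 1.81 ± 0.54. All 11 tested erythroid markers were above 0 (median 0.53) and 11 of 13 microglia and macrophage markers (median 0.37), among them Mrc1 at 1.11 ± 0.48 and Pf4 at 0.99 ± 0.51, genes of macrophages at brain borders. Without Setd1a+/- replicate 2 the endothelial median was 0.15 and the microglial 0.13, with Vtn at 0.35, Cdh5 at 0.29, Col1a1 at 0.99, Col1a2 at 0.84, Mrc1 at 0.62 and Pf4 at 0.52. The erythroid median was 1.02 without wild-type replicate 5. With the meningeal covariate it was 0.10, with 4 of 11 markers below 0, and the microglial median was -0.05, with 8 of 13 below 0. Of the 13 endothelial and pericyte markers, 12 were called higher without Setd1a+/- replicate 1, 12 without Setd1a+/- replicate 3 and 6 without Setd1a+/- replicate 5, against 2.06%, 1.59% and 0.536% of all genes. Of the 10 meningeal markers 7 were called higher without Setd1a+/- replicate 1 and 2 without Setd1a+/- replicate 3, against the same 2.06% and 1.59%. Skeletal muscle and surface epithelium markers summed to at most 11.2 and 10.99 CPM in any library. All 5 tested muscle markers were above 0 with a median of 1.38 (0.62 without Setd1a+/- replicate 3), and 2 were called higher without Setd1a+/- replicate 1, 2 without Setd1a+/- replicate 5 and 1 without wild-type replicate 5, against 2.06%, 0.536% and 2.32% of all genes. The 4 tested epithelial markers were above 0 with a median of 0.33 (0.0488 without Setd1a+/- replicate 4 to 0.59 without wild-type replicate 5). Cartilage and bone markers summed to 137 to 184 CPM, with 8 of 9 above 0 and a median of 0.29 (0.14 without wild-type replicate 1 to 0.47 without Setd1a+/- replicate 5). Of 5 oligodendrocyte precursor markers 3 were below 0, with a median of -0.27 (-0.48 without wild-type replicate 5 to 0.05 without wild-type replicate 2), while Pdgfra, which meningeal cells also express, was at 0.77 ± 0.24 with 62.2 CPM in Setd1a+/- replicate 2 against 6.95 to 28.9 CPM in the other 9 libraries, and at 0.21 without that library. Pdgfra was called without Setd1a+/- replicates 1 or 3 (edgeR adjusted p = 0.0105 and 0.0416).

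At the Setd1a locus, 57 of the tested neighbours on chromosome 7 were above 0 and the others below, none was called by edgeR with all libraries, and the median was -0.04 (-0.06 to -0.03 without 1 library, and -0.01 with library size only). The fit that left out wild-type replicate 5 called 5 lower and 1 higher, which is 3.14% and 0.629% of the tested neighbours, against 2.23% and 2.32% of all genes. Of 27 tested genes listed for the zinc finger cluster on distal chromosome 2, 19 were above 0, with a median of 0.07 (0.02 without Setd1a+/- replicate 3 to 0.14 without Setd1a+/- replicate 2). The list includes genes of other kinds, such as Phactr3 and Cdh26, the latter at 1.12 ± 0.69 (edgeR adjusted p = 0.580). Zfp972 was at 1.10 ± 0.39 (edgeR adjusted p = 0.189, and 0.0465 without wild-type replicate 5). Of the 27, 6 were called higher without wild-type replicate 5, against 2.32% of all genes, and 9 in the other ages, against 1.51% of all genes. The cluster holds near-identical copies, so its counts are uncertain. Of 4 genes that differ between C57BL/6 substrains, Nnt was at -0.10 ± 0.13 and Wdfy1 at -0.23 ± 0.21. Without 1 library these ran from -0.21 to -0.01 and from -0.39 to -0.06. Of the exonic length of Nnt, 47.4% overlaps another gene record with the same symbol.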

How the data were processed

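Poly-A RNA of 50 frontal cortex samples was sequenced with paired ends. The authors trimmed reads with Trimmomatic, aligned them to GRCm38 with STAR and deposited counts per gene from featureCounts v1.4.6-p2 with Ensembl 102 annotation. Fragments were counted without strand and for each gene they overlapped, so overlapping genes cannot be told apart. Symbols came from a GENCODE annotation of the same build, which held 55141 of 55487 gene identifiers. Of 21897 protein-coding genes, 16330 passed the filter (filterByExpr, minimum count 10).

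Counts were scaled by TMM and fitted in edgeR 4.0.16 (R 4.3.3) with 10 groups of age and genotype. Each contrast was tested by edgeR's quasi-likelihood test, Benjamini-Hochberg adjusted over all genes tested, and called at an adjusted p under 0.05. SE was derived from the F statistic. CPM used TMM-scaled library sizes, and distances and components used log2 CPM with a prior count of 2. The mean genotype effect of the other ages was fitted in their 40 libraries alone. The scripts were tested on simulated data. Promoter windows came from RefSeq. Plots used Python 3.11.15 and matplotlib 3.10.9.

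Genes were named by rule. The rule took all called genes, Setd1a and the 10 genes with the smallest p added by leaving out the most influential E14 library. It also took genes that the study named as changed in RNA, but not those named only for their synaptosome protein. From each of 40 gene lists it took up to 2 members with the largest absolute log2 fold change. The most abundant member of a list, per exonic length, was named without a fold change. The members and lists were chosen with earlier results of these data known. Alternatives were limma-voom (limma 3.58.1), DESeq2 1.42.0, other scalings and filters, E14 libraries alone, sample quality weights, RNA integrity, Xist or replicate number as a term, robust dispersion, all gene types, a stricter threshold and each E14 library left out. Leaving out both wild-type replicate 5 and Setd1a+/- replicate 2, the meningeal covariate, and limma-voom and the replicate block on E14 libraries alone were added after the data were seen.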

Additional observations from a re-analysis of the deposited data

Results flagged for a closer look

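Library totals, list sums and named genes were each examined within the 5 wild-type and within the 5 Setd1a+/- libraries. In 35 of 300 such examinations a library lay far from the 4 others of its genotype, with a gap to its nearest neighbour that took up most of the range of the group. Chance gives about 1 in 20 for a single examination, but these share libraries and many share genes, so the counts cannot be set against that share. Wild-type replicate 5 was that library 11 times and Setd1a+/- replicate 2 was it 10 times. The named genes include some chosen because leaving out wild-type replicate 5 added their calls, Riox2 and Tmem100 among them, which favours that library. No explanation was tested.

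In wild-type replicate 5, summed erythroid markers were at 1359 CPM against 309 to 525 CPM in the other wild-type libraries, with Hba-x at 26.9 CPM. Xist was at 1463 CPM, while the Y-linked genes, Uty among them, were at 0 CPM. Kdm6a was at 68.4 CPM, Riox2 at 12.5 CPM, Tmem100 at 2.58 CPM, Pax2 at 0.520 CPM, Trp63 at 0.355 CPM and Tnnt3 at 0.331 CPM, each the highest wild-type value.

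In Setd1a+/- replicate 2, summed endothelial and pericyte markers were at 1292 CPM against 262 to 497 CPM in the other Setd1a+/- libraries. The vascular genes Cdh5 and Vtn were at 141 and 90.1 CPM, and Mfap4 was at 62.9 CPM. Tmem100 was at 6.14 CPM, Nupr1 at 2.73 CPM, S100a13 at 2.58 CPM and Egr4 at 0.329 CPM, all the highest Setd1a+/- values. Ccdc91 at 17.98 CPM and Ikzf1 at 4.45 CPM were the lowest Setd1a+/- values.

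In Setd1a+/- replicate 3, summed radial glia markers were at 2102 CPM against 2383 to 2495 CPM in the others of its group. The cyclin genes Ccnd1 and Ccnd2 were at 75.3 and 694 CPM, and D2hgdh was at 10.9 CPM, again the lowest of the group. Among Setd1a+/- libraries, replicate 1 had the lowest Hbb-bs, at 98.1 CPM, and the highest Nnt, at 45.4 CPM. Replicate 4 had the highest Setd1a+/- values of mt-Atp6, mt-Atp8 and Trp63, at 1.67, 0.733 and 0.278 CPM.

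Among wild-type libraries alone, replicate 1 had the highest Gsx1 (5.73 CPM), replicate 2 the highest Acan (0.461 CPM), and replicate 4 the only wild-type counts of Matn1 (0.0271 CPM). Replicate 3 had the highest wild-type Myh8 (0.277 CPM) and the highest wild-type sum of readers of trimethylated H3K4 (1426 CPM against 1361 to 1379 CPM).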

How the results depend on the processing

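The count of 21 genes called at E14 stayed within 1.5 times with limma-voom (26, 15 of them among the 21), DESeq2 size factors (18, all among the 21), no filter on low counts (15, all among the 21), a filter on the E14 libraries (26, with all 21), the RNA integrity (21, with 19) or Xist (16, with 12) covariates and robust dispersion (21, the same genes). limma-voom called 25 lower and 1 higher, and did not call the higher genes P2rx4, Phlda3 and S100a13 (adjusted p 0.0720, 0.217 and 0.201) or the lower genes Crlf2, Frg2f1 and Prickle4 (0.201, 0.0683 and 0.108). It was 114 with DESeq2, 3 with library size only, 9 with a filter at 10 CPM, 11 over all gene types and 2 at an adjusted p under 0.01. With E14 libraries alone it was 0 by edgeR (527 genes at an unadjusted p under 0.05) and 0 by limma-voom (434). It was then 0 with sample quality weights (1102) and 5 by DESeq2 (1 of them among the 21). Without 1 E14 library it ran from 1 to 747 with the other ages in the fit, and was 0 in all 10 such fits of E14 libraries alone by edgeR (280 to 1304 at an unadjusted p under 0.05). Of the alternatives chosen after seeing the data, leaving out both wild-type replicate 5 and Setd1a+/- replicate 2 gave 54, or 0 with E14 libraries alone by edgeR (874 at an unadjusted p under 0.05), and the meningeal covariate gave 1. The cause was not tested.

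With the replicate number as a block, edgeR called 17 genes at E14, 11 of them among the 21, and 0 with E14 libraries alone (493 at an unadjusted p under 0.05). The pairing is not established. Same-numbered libraries correlated at 0.46, -0.05, -0.11, 0.06 and 0.29, and only number 1 correlated best with its own number in both directions.

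The difference between E14 and the other ages called 0 genes in edgeR and limma-voom under all alternatives with the 10 E14 libraries, 7 with DESeq2, and 0 to 562 without 1 E14 library. At E14, Setd1a stayed above 0 and not called in the fits of protein-coding genes run for it, from 0.07 to 0.17. In the 40 libraries of the other ages it was called higher. The count of 16 E14 genes called in the other ages was the same in all 6 alternatives run for it.

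For the 21 called genes, 815 values were computed under alternatives. All kept their direction, 306 passed the threshold and 509 did not. For 87 genes not called, 3059 of 3172 values stayed on the same side of the threshold with the same sign, 80 passed it and 33 changed sign. The changes of sign follow as log2 fold changes, and the cause was not tested. With the meningeal covariate Lhx6 was at 0.0987, Pax2 at -0.40, Mrc1 at -0.0639, Pf4 at -0.31, Vtn at -0.0615, Pdgfra at -0.0353 and Pfkp at 0.0236. Over the fits of all ages without 1 or both E14 libraries, the values ran for Mef2c from -0.36 to 0.0614, Calb2 from -0.32 to 0.0364, Wnt3a from -0.0600 to 0.92, En2 from -0.79 to 0.11, Acan from -0.24 to 0.83, Kdm6a from -0.22 to 0.0148, Rps21 from -0.30 to 0.0494, Cdt1 from -0.0105 to 0.21, Pole from -0.17 to 0.0252, Pfkp from -0.37 to 0.000887 and Nnt from -0.21 to 0.0299. With E14 libraries alone, Mef2c was at 0.0842 and Pfkp at 0.0196 without wild-type replicate 2. Calb2 was then at 0.0571, Wnt3a at -0.0397 and Pole at 0.0277 without Setd1a+/- replicate 3. Calb2 was then at 0.0656 without wild-type replicate 4. Kdm6a was then at 0.0112, Pole at 0.0256 and Nnt at 0.0185 without wild-type replicate 5. Kdm6a was then at 0.0429, Rps21 at 0.0758, Pole at 0.0526 and Nnt at 0.0556 without both wild-type replicate 5 and Setd1a+/- replicate 2.

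The number of genes called changed with single libraries and with the fit. The direction of the 21 genes held in the alternatives run. They were chosen for their p in the same E14 libraries, so a kept direction was largely set by that choice. Genes of few counts, such as Mapk13, carry counting error as well. A gene that was not called may still differ.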
